A study of Homo sapiens with 18 samples.

Results

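The response of sgXIST7 knockdown cells to low oxygen was measured by RNA-seq in 6 of the 18 libraries of the series, selected by their group labels: 3 libraries of sgXIST7 cells kept for 24 h at 1% O2 (hypoxia) and 3 of sgXIST7 cells kept in normoxia. The cells were OVCAR3-KRAB, which is the OVCAR3 ovarian cancer line carrying a lentiviral dCas9-KRAB, a nuclease-dead Cas9 joined to a repressor domain that silences the promoter its guide RNA points to. The sgXIST7 guide was aimed at the promoter of XIST, the long noncoding RNA that coats and silences an X chromosome. The other 12 libraries came from cells with a control guide (sgCtl) and from cells with a second XIST guide (sgXIST9), each with 3 libraries in normoxia and 3 in hypoxia, so that all 18 libraries carried dCas9-KRAB. Each guide was studied in clonal cells, so that the guide and the clone cannot be told apart. The study describes its RNA-seq replicates as biological replicates. The labels do not say whether the 3 libraries of a group came from separate cultures of the clone, and p-values measure only the spread between these samples.

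When oxygen is scarce, the prolyl hydroxylases of the EGLN family stop marking the HIF alpha subunits (HIF1A, EPAS1) for destruction by VHL. The subunits then pair with ARNT, bind short DNA elements with an ACGTG or GCGTG core, and switch on genes for glucose uptake, glycolysis, vessel growth, pH control, collagen modification and mitochondrial turnover, including EGLN genes themselves. Severe or lasting hypoxia also halts DNA synthesis and cell division and can start the integrated stress response, in which translation is curbed and ATF4 targets are made.

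The total count was 16151046 to 22686720 per normoxia library and 13483871 to 24906936 per hypoxia library, against 11794375 to 24906936 over all 18, and hypoxia replicate 3 was the shallowest of the 6. It also stood apart from the other hypoxia libraries on the second principal component, which held 7.85% of the variance, and without it 2138 genes were up-regulated and 1642 down-regulated, against 2262 and 1815 with it. RN7SL1, the RNA of the signal recognition particle, was the gene with the most counts, with 3% to 4.4% of the total in normoxia and 5.1% to 6.22% in hypoxia. XIST had 5, 4 and 1 counts in the sgXIST7 normoxia libraries and 0, 2 and 3 in hypoxia, whereas sgCtl normoxia libraries held 4213 to 11209. The sgXIST9 normoxia libraries held 650 to 1009, so that XIST was less reduced with that guide. In sgCtl hypoxia XIST had 1589 to 5014 counts and a lower fitted level than in normoxia (log2 fold change -1.48, adjusted p = 0.0059). In CPM (counts scaled to a common library size), the sgCtl values were 329, 867 and 242 in normoxia and 123, 249 and 141 in hypoxia, which overlap. Markers of the labelled ovarian origin were largely missing. Of 15 ovarian and Müllerian epithelial markers, 9 had at most 3 counts in each normoxia library and 8 in each hypoxia library, MUC16, CLDN3 and HOXA9 had 0 counts in all 6, and only PAX8, KRT18, EPCAM, MSLN and KRT8 passed the filter on low counts. Their summed level was 345 to 407 CPM in normoxia and 460 to 518 CPM in hypoxia. The 10 ovarian markers that did not pass the filter had 0 (CLDN3 and HOXA9) to 70 (WT1) counts in total over all 18 libraries. Their lack was therefore not particular to sgXIST7. The summed level of 10 fibroblast markers was 1129 to 1204 CPM in normoxia and 886 to 1297 CPM in hypoxia, mostly from COL3A1, and that of 10 leukocyte markers was 25.2 to 33.6 and 16 to 27 CPM, with CD3D, CD3E, MS4A1 and NKG7 at 0 in all 6 libraries. Of the endothelial markers, which summed to at most 2.49 CPM, only ESAM passed the filter. PAX8 (log2 fold change 1.54, adjusted p = 0.0011), ESAM (2.14, adjusted p = 1.0e-04) and the leukocyte marker ITGAM (2.45, adjusted p = 0.0059, not called when any library but hypoxia replicate 3 was left out) were higher in hypoxia, and their part in the results below was not tested.

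Low oxygen changed the level of 4077 genes in sgXIST7 cells, or 27.3% of those that could be tested. Of 28277 genes listed, 14938 passed the filter on low counts, and 2262 (15.1%) were up-regulated and 1815 (12.2%) were down-regulated in hypoxia at a Benjamini-Hochberg adjusted p under 0.01 with a log2 fold change beyond 1 either way. Of the genes called, 55.5% were up-regulated, and the median log2 fold change over all genes tested was 0.01. The up-regulated genes moved further than the down-regulated ones. Among the former, 928 had an absolute log2 fold change above 2 and 211 above 4, with a median of 1.80, and among the latter 373 and 19, with a median of 1.48. On the CPM scale, the 3 hypoxia libraries lay wholly above or below the 3 normoxia libraries in 9541 genes (63.9%), which included 2244 of the up-regulated (99.2%) and 1811 of the down-regulated genes (99.8%). By RefSeq class, 250 of 1049 long noncoding RNAs tested rose (23.8%) and 117 fell (11.2%), whereas 1780 of 12522 protein-coding genes rose (14.2%) and 1539 fell (12.3%). Of 263 small nucleolar RNAs tested, 16 rose and 51 fell.

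**Figure D1:**
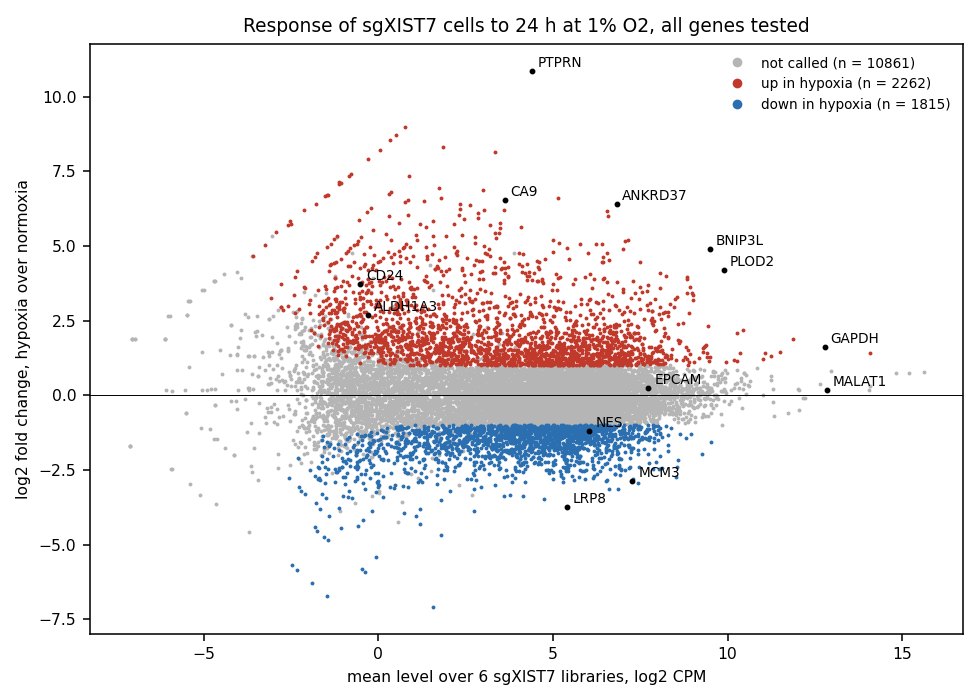
Log2 fold change between sgXIST7 hypoxia and normoxia (vertical axis) against the log2 of the mean CPM over the 6 libraries (horizontal axis) for the 14938 genes tested, one point per gene, coloured where a gene was called up-regulated (2262) or down-regulated (1815). The up-regulated genes reach larger fold changes than the down-regulated ones, and at the left edge the fitted values of genes with a group at or near 0 counts depend on the prior count.

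The 15 genes with the largest up-regulation at a mean of at least 100 counts were low in normoxia, at no more than 4.22 CPM in any library. CA9 (chr9:35673928-35681157, hg38), the cell surface carbonic anhydrase widely used as a hypoxia marker, stood at 0.173, 0.389 and 0.218 CPM in normoxia and at 13.9, 23.4 and 35.6 CPM in hypoxia (log2 fold change 6.55 ± 0.65 (SE), adjusted p = 2.6e-07). ANKRD37, an ankyrin-repeat gene known as a HIF1A target, stood at 1.99, 4.22 and 1.92 CPM in normoxia and at 152, 245 and 274 CPM in hypoxia (6.40 ± 0.38, adjusted p = 9.3e-10). JUN, a subunit of the AP-1 transcription factor, was at 2.77, 3 and 2.92 CPM in normoxia and at 101, 187 and 274 CPM in hypoxia (6.02 ± 0.41, adjusted p = 4.5e-09). In each of these genes replicate 1 was the lowest hypoxia library and still far above the highest normoxia library. PTPRN, which encodes a protein of neuroendocrine secretory granules, had 0, 1 and 0 counts in normoxia and 603, 1062 and 570 in hypoxia, a ratio of 2624 with a 95% counting interval of 470 to 103689. The receptor phosphatase gene PTPRD had 1, 3 and 0 counts in normoxia and 246, 414 and 343 in hypoxia, a ratio of 294 (115 to 1083). ISM2 (6.60), FOXD1 (6.37), DOK3 (6.18), the nuclear receptor NR4A3 (6.11), GPR146 (5.95) and the muscarinic receptor CHRM4 (5.69) were also among the largest log2 fold changes, as were TMEM74B (6.89) and LINC01132 (6.22). UPK1A (6.22) and UPK1A-AS1 (5.78) overlap on opposite strands, and since the strand setting of the authors' counting is not stated, their reads may be shared and both values are uncertain.

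Promoters of 2 genes of this group and of the glycolytic gene ALDOC are shown because they carry the HIF core letters, which stand in capitals (ACGTG or GCGTG on either strand; overlapping matches run together). The sequences are from RefSeq on GRCh38.p14, 250 bases before to 50 after the annotated start, 5′ to 3′ on the gene's strand, at chr9:35673678-35673977 (plus strand) for CA9, chr4:185396591-185396890 (plus strand) for ANKRD37 and chr17:28576846-28577145 (minus strand) for ALDOC.
CA9: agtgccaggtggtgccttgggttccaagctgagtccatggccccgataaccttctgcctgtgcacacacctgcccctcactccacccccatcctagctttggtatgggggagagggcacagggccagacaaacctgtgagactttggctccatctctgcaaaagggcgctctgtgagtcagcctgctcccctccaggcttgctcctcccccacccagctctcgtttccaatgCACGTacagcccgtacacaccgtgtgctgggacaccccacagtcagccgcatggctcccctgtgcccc
ANKRD37: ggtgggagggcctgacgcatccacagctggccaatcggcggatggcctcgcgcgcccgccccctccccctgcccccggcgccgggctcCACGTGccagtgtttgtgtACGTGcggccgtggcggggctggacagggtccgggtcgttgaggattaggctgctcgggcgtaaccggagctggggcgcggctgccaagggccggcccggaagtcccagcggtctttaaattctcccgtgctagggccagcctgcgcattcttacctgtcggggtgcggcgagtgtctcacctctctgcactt
ALDOC: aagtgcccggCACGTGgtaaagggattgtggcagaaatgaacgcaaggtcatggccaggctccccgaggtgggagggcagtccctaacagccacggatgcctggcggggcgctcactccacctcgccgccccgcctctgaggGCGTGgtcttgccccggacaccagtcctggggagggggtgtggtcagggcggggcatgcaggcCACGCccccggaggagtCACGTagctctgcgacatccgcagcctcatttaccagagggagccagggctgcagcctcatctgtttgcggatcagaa
CA9 holds 1 match, ANKRD37 holds 3 and ALDOC holds 5. Not every promoter looked at among the genes that rose holds a match. Those of MXI1 and PDK1 hold 0, those of PFKFB4, EGLN1 and ADM hold 1 each and that of CCNG2 holds 2. Of all 27305 promoters in the RefSeq table, 48.4% hold ACGTG or GCGTG on either strand and 21.6% hold ACGTG. Among the 14938 genes tested, 11114 had a promoter in the table, an incomplete match, and of these 62.7% hold either core and 26.3% hold ACGTG. Of the 26 glycolysis promoters found in that table, 69.2% hold either core and 38.5% hold ACGTG. The same either-core share was 72.4% in 29 promoters of mitosis genes and 68.8% in 32 of DNA replication genes, whose transcripts fell in hypoxia. These matches are descriptions of letters and not binding sites.

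The genes of oxygen sensing moved apart from one another. Of 12 tested in this list, 5 rose (41.7%) and 1 fell (8.33%), beside 15.1% and 12.2% over all genes tested, with a median log2 fold change of 0.36. EGLN1, the main HIF prolyl hydroxylase, was at 68.1, 79.8 and 62.9 CPM in normoxia and at 546, 570 and 644 CPM in hypoxia (3.06 ± 0.12, adjusted p = 1.9e-11). EPAS1, which encodes HIF2 alpha, was at 7.13, 10.5 and 6.88 CPM in normoxia and at 55, 75.5 and 56.1 CPM in hypoxia (2.93 ± 0.20, adjusted p = 3.8e-09). The groups were far apart in both genes, with no overlap. CITED2, a HIF1A target that competes with HIF for its coactivators, rose (2.96), as did SIAH2 (2.15), an E3 ligase that acts on EGLN proteins, and ARNTL (1.99), a clock protein related to ARNT. HIF1A itself was at 795, 692 and 783 CPM in normoxia and at 474, 478 and 519 CPM in hypoxia, lower in every hypoxia library but short of the fold threshold (-0.63, adjusted p = 8.4e-06). VHL was at 91.5 to 104 CPM in normoxia and 81.4 to 110 CPM in hypoxia, which overlap. EGLN3, often a strongly induced HIF target, was at 1.3, 1.83 and 1.48 CPM in normoxia and at 1.39, 1.09 and 0.518 CPM in hypoxia, also overlapping (-0.56, adjusted p = 0.36). PASK, a PAS domain kinase, fell by 1.98 on the log2 scale. All 18 genes of a list of HIF target transcription factors and repressors, which also holds the ER oxidase ERO1A, were tested, and 16 of them rose and none fell, with a median of 2.60 (2.38 with BHLHE41 at its bound). The MYC antagonist MXI1 rose (4.77), as did the nuclear receptor RORA (4.11), the stress factor ATF3 (5.91), which also counts among the integrated stress response and immediate early genes, the clock repressor BHLHE40 (3.39) and ERO1A (3.21). BHLHE41 had 0 counts in every normoxia library and 5, 20 and 12 in hypoxia, which is at least 4.83-fold higher against a floor of 3 counts per library.

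Glucose uptake and glycolysis rose almost as a block. Of 27 genes tested, 23 rose and 1 fell, with a median log2 fold change of 1.99 against 0.01 over all genes. SLC2A1, which encodes the glucose transporter GLUT1, was at 22.5, 33.9 and 25.2 CPM in normoxia and at 259, 347 and 401 CPM in hypoxia (3.62 ± 0.20, adjusted p = 4.1e-10). ALDOC, an aldolase isozyme, was at 4.32, 12.9 and 5.49 CPM in normoxia and at 198, 347 and 286 CPM in hypoxia (5.21 ± 0.47, adjusted p = 8.9e-08). PFKFB4, which makes the activator of phosphofructokinase, was at 18.2, 52 and 19.8 CPM in normoxia and at 428, 528 and 575 CPM in hypoxia (4.09). In ALDOC and PFKFB4 normoxia replicate 2 stood above replicates 1 and 3, yet every hypoxia library was several times higher. The most abundant enzymes of the pathway moved less. GAPDH went from 3414 to 3492 CPM in normoxia to 8845 to 11988 CPM in hypoxia (1.62), and LDHA, which makes lactate, from 1475 to 1608 CPM to 3809 to 4530 CPM (1.46). HK2 (3.19), the hexokinase that commits glucose to the cell, PDK1 (2.88), which inhibits pyruvate dehydrogenase, ENO2 (3.70) and PGK1 (2.19) also rose. GPI, the isomerase of the second step, went the other way, from 319, 356 and 320 CPM to 145, 134 and 150 CPM (-1.21, adjusted p = 2.2e-08). ENO1 (0.22), LDHB (-0.71) and PFKM (-0.81) were not called.

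**Figure D2:**
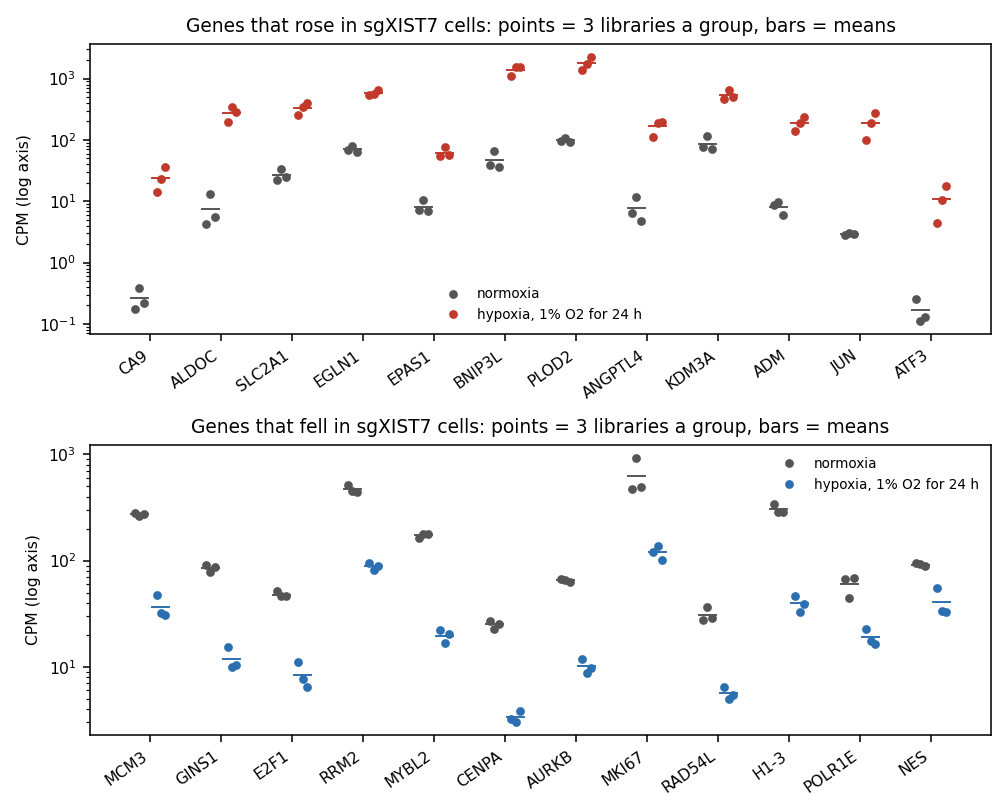
Level in CPM (log axis) of 12 up-regulated and 12 down-regulated genes in each of the 6 sgXIST7 libraries, one point per library and a bar at the mean of 3, normoxia in grey and hypoxia in red or blue. No hypoxia point lies within the range of the normoxia points of the same gene.

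Secreted and extracellular matrix genes rose in part. Of 12 angiogenic and vasoactive genes tested, 7 rose and 1 fell, with a median of 1.28, and a further 8 (ANGPT1, ADM2, EDN1, EDN2, STC1, IGFBP1, IGFBP5 and EPO) were too low to test. VEGFA, the principal vessel growth factor, was at 27.5, 28.9 and 28.5 CPM in normoxia and at 209, 316 and 378 CPM in hypoxia (3.41 ± 0.29, adjusted p = 4.0e-08). ANGPTL4, an inhibitor of lipoprotein lipase, was at 6.44, 11.7 and 4.84 CPM in normoxia and at 113, 188 and 198 CPM in hypoxia (4.45, adjusted p = 5.3e-08). In both genes replicate 1 was the lowest hypoxia library, but none came near normoxia. ADM, the vasodilator adrenomedullin (4.53), and IGFBP3, which binds insulin-like growth factors (3.96), rose as well. PGF, placental growth factor, fell from 2.59, 1.17 and 1.48 CPM to 0.382, 0.0906 and 0 CPM (-3.25, adjusted p = 2.9e-04). Of 13 collagen hydroxylases and lysyl oxidases tested, 8 rose and none fell, with a median of 1.30. PLOD2, a lysyl hydroxylase that sets collagen cross-links, was at 95.4, 106 and 93.4 CPM in normoxia and at 1397, 1754 and 2244 CPM in hypoxia (4.19 ± 0.22, adjusted p = 2.7e-10). The collagen prolyl hydroxylase subunits P4HA1 (3.88) and P4HA2 (3.43) and the lysyl oxidase LOX (4.75) rose too. Of 12 pH regulators tested, 3 rose (25%) and none fell, beside 15.1% and 12.2% over all genes tested, with a median of -0.02. Those that rose were CA9, the related carbonic anhydrase CA12, from 17.8, 19.3 and 16.8 CPM to 79.1, 125 and 150 CPM (2.72), and SLC16A3, the lactate exporter, from 88.3, 98 and 82 CPM to 400, 374 and 431 CPM (2.17).

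Enzymes that use oxygen to remove methyl groups from histones and DNA, the JmjC demethylases and TET proteins, rose more often than they fell. Of 21 tested, 13 rose and 1 fell, with a median of 1.19. KDM3A, an H3K9 demethylase and HIF target, was at 75.5, 114 and 70.6 CPM in normoxia and at 459, 655 and 504 CPM in hypoxia (2.64). KDM7A was at 2.9, 4 and 2.74 CPM in normoxia and at 51.6, 124 and 143 CPM in hypoxia (5.05 ± 0.45, adjusted p = 7.9e-08). KDM4B (2.73), KDM4C (2.58), TET1 (1.94), TET2 (1.82) and the X-linked H3K4 demethylase KDM5C (1.75) rose. KDM4D fell by 2.59 on the log2 scale, from 3.53 to 4.37 CPM in normoxia to 0.573 to 0.725 CPM in hypoxia.

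Genes of mitophagy, autophagy and growth arrest were mostly up-regulated, with 16 of 19 tested rising and none falling (median 2.35). BNIP3L, a mitochondrial receptor for autophagy, was at 38.4, 65.6 and 36.6 CPM in normoxia and at 1095, 1541 and 1548 CPM in hypoxia (4.90 ± 0.34, adjusted p = 5.4e-09). Its relative BNIP3 was at 80.3, 94.1 and 78.6 CPM in normoxia and at 803, 913 and 1038 CPM in hypoxia (3.44). NDRG1, a stress-responsive gene linked to differentiation, went from 2.42, 1.56 and 2.18 CPM to 66.6, 83 and 62.6 CPM (5.09). In all of these the groups were well separated. RRAGD, a GTPase of the lysosomal nutrient-sensing complex (5.07), the antiproliferative gene BTG1 (4.47), CCNG2, an atypical cyclin linked to arrest (3.81), the mTORC1 inhibitor DDIT4 (2.56) and the cyclin-dependent kinase inhibitor CDKN1A (2.87) rose.

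The cell cycle was the most uniform group to fall. Of 37 DNA replication genes tested, 32 fell and none rose, with a median log2 fold change of -1.91, and of 36 mitosis genes 35 fell and none rose, with a median of -1.98. MCM3 (chr6:52264015-52284742, hg38), a subunit of the replicative helicase, was at 282, 264 and 273 CPM in normoxia and at 48, 32.3 and 30.7 CPM in hypoxia (-2.88 ± 0.16, adjusted p = 4.6e-10). E2F1, a transcription factor that opens S phase, was at 51.3, 46.1 and 46.2 CPM in normoxia and at 11, 7.61 and 6.47 CPM in hypoxia (-2.50 ± 0.17, adjusted p = 4.5e-09). RRM2, the regulated subunit of ribonucleotide reductase, went from 516, 456 and 444 CPM to 95.1, 81.2 and 88.1 CPM (-2.42). In each of these genes replicate 1 was the highest of the hypoxia libraries and yet far below the lowest normoxia library. GINS1 (-2.84), UHRF1 (-2.69), ORC1 (-2.55) and PCNA (-2.36) fell as well. TK1, thymidine kinase, was among the 5 that were not called, at 85.4 to 88.5 CPM in normoxia and 61.8 to 78.9 CPM in hypoxia (-0.34, adjusted p = 0.014).

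Among mitosis genes, CENPA (chr2:26786015-26794587, hg38), the centromeric histone H3, was at 27.2, 22.8 and 25.5 CPM in normoxia and at 3.25, 3.04 and 3.8 CPM in hypoxia (-2.92). MYBL2, a transcription factor of G2/M genes that stood outside the list, was at 164, 180 and 179 CPM in normoxia and at 22.2, 16.6 and 20.2 CPM in hypoxia (-3.15). The proliferation marker MKI67 was at 473, 931 and 493 CPM in normoxia and at 121, 138 and 102 CPM in hypoxia (-2.40 ± 0.32, adjusted p = 6.5e-06). Normoxia replicate 2 stood well above the other normoxia libraries for MKI67, and all hypoxia libraries were below them. DLGAP5 (-2.84), which stabilizes spindle microtubules, the chromosomal passenger kinase AURKB (-2.70) and cyclin A2, CCNA2 (-2.50), fell too. BUB3, a spindle checkpoint protein, was the 1 mitosis gene not called (-0.68). These are bulk RNA values, in which fewer cells of a type and less RNA per cell cannot be told apart.

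The promoters of MCM3 and CENPA are shown for comparison with the HIF targets. An E2F-like element (TTTCGCGC or TTTGGCGC on either strand) stands in capitals for MCM3. A CHR-like element (TTTGAA or TTCGAA on either strand) stands in capitals for CENPA. Both promoters were chosen because they hold a match, while those of AURKB and MYBL2 hold neither element. The sequences are from RefSeq on GRCh38.p14, at chr6:52284693-52284992 (minus strand) and chr2:26785806-26786105 (plus strand). The MCM3 promoter also holds a HIF core, GCGTG on the other strand, which is left in lower case near its end.
MCM3: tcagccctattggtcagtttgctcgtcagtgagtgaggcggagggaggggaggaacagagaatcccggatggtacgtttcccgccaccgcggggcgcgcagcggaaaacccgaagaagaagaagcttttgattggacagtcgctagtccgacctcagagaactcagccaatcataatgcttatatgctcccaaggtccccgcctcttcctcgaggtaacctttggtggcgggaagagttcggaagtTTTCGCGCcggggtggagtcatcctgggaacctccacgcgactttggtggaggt
CENPA: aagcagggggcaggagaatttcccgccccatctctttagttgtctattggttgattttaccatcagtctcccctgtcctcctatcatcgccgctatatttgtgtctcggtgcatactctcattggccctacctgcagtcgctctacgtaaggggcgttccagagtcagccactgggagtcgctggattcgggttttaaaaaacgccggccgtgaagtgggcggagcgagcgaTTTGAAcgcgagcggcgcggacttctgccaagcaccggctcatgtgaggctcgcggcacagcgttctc
TTTCGCGC or TTTGGCGC stood in 34.4% of 32 DNA replication promoters, 3.45% of 29 mitosis promoters, 3.85% of 26 glycolysis promoters, 2.05% of the 11114 promoters of genes tested and 1.18% of all 27305. TTTGAA or TTCGAA stood in 69% of the mitosis promoters, 6.25% of the replication promoters, 3.85% of the glycolysis promoters, 11.2% of those of genes tested and 16.6% of all.

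Genes that repair DNA by homologous recombination or in the Fanconi pathway fell in 17 of 27 cases and rose in none (median -1.51). RAD54L, a DNA translocase of strand exchange, was at 27.4, 37 and 28.9 CPM in normoxia and at 6.4, 5.03 and 5.44 CPM in hypoxia (-2.46), with the nuclease EXO1 (-2.28) also lower. Of 45 replication-dependent histone genes tested, 36 fell and 1 rose, with a median of -1.95. H1-3, a linker histone, was at 343, 286 and 287 CPM in normoxia and at 46.8, 33.2 and 38.9 CPM in hypoxia (-2.94), and H2BC11 fell by 3.14 on the log2 scale. The 1 that rose, H4C4, stayed at or below 1.36 CPM. Histone genes form families of near-identical copies, and reads may have been split between them. Of 30 ribosome biogenesis genes, 11 fell and none rose (median -0.71), with POLR1E, a subunit of RNA polymerase I, going from 67.5, 44.8 and 68.9 CPM to 22.8, 17.6 and 16.4 CPM (-1.67). The 77 cytosolic ribosomal protein genes moved little, with 1 of them, RPS26, down (-1.06) and a median of 0.14. RPS26 was not called without normoxia replicate 1 (-0.95) or 3 (-0.98) or hypoxia replicate 2 (-0.85) or 3 (-0.99).

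**Figure D3:**
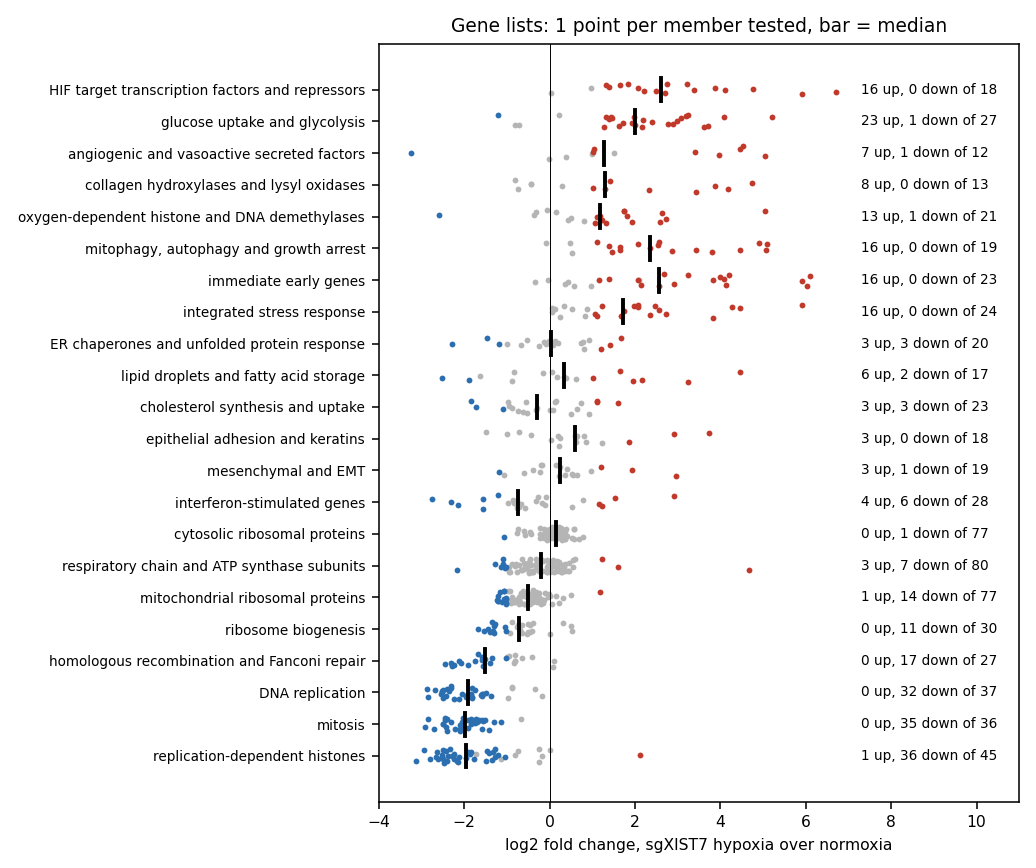
Log2 fold change between sgXIST7 hypoxia and normoxia (horizontal axis) of the tested members of each gene list (vertical axis), one point per gene, red where up-regulated and blue where down-regulated, with a bar at each list's median. The medians of glycolysis, mitophagy and HIF target transcription factors lie to the right of 0, and those of DNA replication, mitosis and histone genes to the left.

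Among stress genes, most of those of the integrated stress response and immediate early lists rose, and the ER chaperone list had few calls either way. All 24 integrated stress response genes were tested, and 16 rose and none fell (median 1.71). DDIT3, the stress factor CHOP, was at 8.13, 7.94 and 8.63 CPM in normoxia and at 28.3, 43.9 and 64.2 CPM in hypoxia (2.46 ± 0.25, adjusted p = 3.0e-07). CHAC1, a glutathione-degrading ATF4 target, was at 3.8, 3.17 and 3.01 CPM in normoxia and at 27.8, 37 and 78.6 CPM in hypoxia (3.83). Hypoxia replicate 3 was the highest in both. NUPR1 (4.27), the pseudokinase TRIB3 (2.07) and ATF4 itself (1.06) rose. Of 20 genes of ER chaperones and the unfolded protein response 3 rose and 3 fell (15% each), with a median of 0.04. These shares were near the 15.1% and 12.2% over all genes tested. The ER cochaperone SDF2L1 (-2.28) and CRELD2 (-1.46) fell, and HSPA5, the main ER chaperone, was at 282 to 388 CPM in normoxia and 250 to 448 CPM in hypoxia, which overlap. DNAJB9 (1.67) and HERPUD1 (1.41), which serve ER-associated degradation, rose. Of 23 immediate early genes, which answer to growth factors and stress within minutes, 16 rose and none fell (median 2.56). FOS, the partner of JUN, went from 2.38, 2 and 2.09 CPM to 29.9, 43.1 and 41.2 CPM (4.13 ± 0.21, adjusted p = 2.7e-10), and KLF2 (4.21), EGR3 (4.09), the nuclear receptor NR4A1 (from 1.18 to 2.11 CPM in normoxia to 20.8 to 28.1 CPM) and JUNB (3.25) rose. MYC was at 77.6 to 106 CPM in normoxia and 59.5 to 81.7 CPM in hypoxia, which overlap.

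Metal, redox and lipid genes gave mixed counts. The shares that rose and fell were 10.5% and 15.8% of NRF2 targets, 11.8% and 0% of heat shock genes and 13% and 13% of cholesterol genes. They were 33.3% and 8.33% of iron genes and 35.3% and 11.8% of lipid droplet and fatty acid genes. Over all genes tested they were 15.1% and 12.2%. Of 19 NRF2 targets, 2 rose, the glutathione synthesis enzyme GCLC (2.29) and heme oxygenase HMOX1 (1.76), and 3 fell, among them TXNRD1 (-1.44), thioredoxin reductase, and TKT (-1.40), transketolase. Both metallothioneins called rose, MT1X from 54.6, 26.8 and 52.5 CPM to 99, 219 and 221 CPM and MT2A by 1.25 on the log2 scale, and 8 of the 11 metallothioneins were too low to test. Of 12 iron genes, 4 rose and 1 fell: the transferrin receptor TFRC went from 280, 241 and 284 CPM to 512, 688 and 895 CPM (1.38 ± 0.16, adjusted p = 2.0e-06), FTL, ferritin light chain, rose (1.68), and STEAP3, an endosomal iron reductase, fell by 1.94 on the log2 scale. Of 17 heat shock protein genes, 2 rose, HSPB1 (2.79, at most 1.77 CPM) and DNAJB4 (1.55). Of 17 lipid droplet and fatty acid genes, 6 rose and 2 fell. HILPDA, the hypoxia-inducible inhibitor of lipolysis, rose (3.24), as did VLDLR, a lipoprotein receptor (4.45), and PLIN2, a lipid droplet coat protein (1.66). The fall of FABP5, a fatty acid carrier (-1.88), was steady, whereas LPCAT1 (-2.52, adjusted p = 0.0063) lost its call when normoxia replicate 2 (-2.38) or 3 (-2.18) or hypoxia replicate 2 (-2.26) or 3 (-2.27) was left out. Of 23 cholesterol genes 3 rose, among them TM7SF2 (1.60) and SREBF2 (1.11), and 3 fell, among them MVK (-1.84) and EBP (-1.72). SREBF2 was not called without normoxia replicate 1 or hypoxia replicate 2 (0.92 in both).

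Nuclear genes of mitochondria moved less than those of glycolysis. Of 80 respiratory chain and ATP synthase subunits tested, 3 rose (3.75%) and 7 fell (8.75%), with a median of -0.21. Of 77 mitochondrial ribosomal proteins, 1 rose (1.3%) and 14 fell (18.2%), with a median of -0.51. Over all genes tested, 15.1% rose and 12.2% fell. NDUFA4L2, a HIF target thought to lower complex I activity, went from 0.216, 0.111 and 0 CPM to 2.63, 2.9 and 3.45 CPM (4.68). ATP5MC1, a subunit of the ATP synthase ring, went from 58.6, 46.1 and 60.3 CPM to 13.8, 11.1 and 11.7 CPM (-2.17 ± 0.14, adjusted p = 2.0e-09), and CYC1, cytochrome c1, fell by 1.28 on the log2 scale. The count of mitochondrial ribosomal proteins that fell was 8 without normoxia replicate 1 and 6 without hypoxia replicate 2, and that of respiratory chain genes was 11 without normoxia replicate 2 and 4 without hypoxia replicate 2.

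Genes of cell death, cell identity and interferon were less uniform. The shares that rose and fell were 30.4% and 4.35% of death genes and 14.3% and 21.4% of interferon genes. They were 16.7% and 0% of epithelial genes and 15.8% and 5.26% of mesenchymal genes. Over all genes tested they were 15.1% and 12.2%, so that the epithelial and mesenchymal genes rose about as often as any gene. Of 23 BCL2 family and p53-responsive death genes, 7 rose and 1 fell: BIK (3.04), a BH3-only killer, BOK (1.94), APAF1, the apoptosome scaffold (1.93), and CASP8 (1.38) were among those that rose, and BAK1, a mitochondrial pore protein, fell by 1.18 on the log2 scale. Of 18 epithelial genes tested, 3 rose and none fell, and 15 further genes of that list were too low to test. MUC1, a cell surface mucin, rose from 0.778, 4.33 and 1.35 CPM to 8.65, 24.1 and 15.2 CPM (2.92), while the call of ELF3, an epithelial transcription factor (1.87, adjusted p = 0.0057), was lost when any library but hypoxia replicate 1 was left out (1.65 to 2.09). Of 19 mesenchymal genes, 3 rose and 1 fell, with fibronectin FN1 (2.95), TWIST1 (1.92) and ZEB2 (1.20) higher. VIM, vimentin, was at 5513 to 5683 CPM in normoxia and 6460 to 8446 CPM in hypoxia (0.37, adjusted p = 0.063). Of 28 interferon-stimulated genes tested, 4 rose and 6 fell, with a median of -0.74. MX1, an antiviral GTPase, fell from 3.8, 4.39 and 4.49 CPM to 0.956, 0.589 and 1.04 CPM (-2.32), and ISG20, an exonuclease, rose from 7.05, 10.1 and 7.1 CPM to 45.8, 68.3 and 67.1 CPM (2.91). Among 11 long noncoding RNAs linked to hypoxia, MIR210HG, the host transcript of the hypoxic microRNA miR-210, rose from 0.562, 4.22 and 0.566 CPM to 28.2, 32.7 and 47.6 CPM (4.40) and LUCAT1 rose (4.04), whereas SNHG12 (-1.87) and SNHG1 (-1.12) fell. MALAT1 was at 5486 to 9707 CPM in normoxia and 6446 to 9480 CPM in hypoxia, which overlap.

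A list of cancer stem cell markers held CD24, ALDH1A3 and NES, which the study followed under hypoxia. It also held genes that the study does not name, such as PROM1 and SOX2, which were too low to test. Of 9 tested, 2 rose (22.2%) and 1 fell (11.1%), beside 15.1% and 12.2% over all genes tested, with a median of 0.18. CD24 and ALDH1A3 were those that rose and NES the one that fell, the directions the study reported for hypoxia in these cells. CD24 (chr6:106969831-106976855, hg38), a surface glycoprotein, had 3, 3 and 0 counts in normoxia and 48, 22 and 7 in hypoxia, a ratio of 15.1 with a 95% counting interval of 6.62 to 42.3 (adjusted p = 9.3e-04). ALDH1A3 (chr15:100879831-100916625, hg38), a retinaldehyde dehydrogenase, had 8, 4 and 2 counts in normoxia and 40, 30 and 11 in hypoxia (2.68 ± 0.41, adjusted p = 3.2e-05). Both genes stayed below 3 CPM in every sgXIST7 library. NES, which encodes the intermediate filament nestin, went from 95.4, 92 and 88.2 CPM to 54.9, 33.9 and 32.5 CPM (-1.18 ± 0.27, adjusted p = 0.0012), and was not called without hypoxia replicate 2 (-1.06). EPCAM was at 197, 169 and 219 CPM in normoxia and at 228, 233 and 234 CPM in hypoxia (0.25, adjusted p = 0.037), and ALDH1A1 was at 4278 to 4953 CPM in normoxia and 3713 to 5524 CPM in hypoxia, which overlap. CD44 had 0 counts in all 6 libraries and 1 over all 18, so that its RNA was not detectable at this depth. The study stained CD44 protein in OVCAR3-KRAB cells by flow cytometry. It reported more cells high in CD44 and low in CD24 after XIST knockdown, which is a different measure.

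Among genes with a mean of at least 100 counts and groups that do not overlap, the largest falls outside the lists were in genes of varied function. LRP8, a receptor for apolipoprotein E and reelin, was at 75.8, 80.5 and 77.8 CPM in normoxia and at 6.12, 5.62 and 5.87 CPM in hypoxia, a fall with little spread in either group (-3.73 ± 0.12, adjusted p = 1.5e-12). SOCS2, a brake on growth hormone signaling, went from 16.6, 11.1 and 13.6 CPM to 1.58, 1.54 and 1.9 CPM (-3.06). PPARGC1B, a coactivator of mitochondrial gene expression, went from 26.1, 39.4 and 30.7 CPM to 3.3, 3.22 and 2.76 CPM (-3.36). LRRC20 (-3.87), LRRC45 (-3.48), CALML4 (-3.38), SLC16A14 (-3.34), FBXO36 (-3.14), the mitochondrial aspartate-glutamate carrier SLC25A12 (-2.89) and NUDT3 (-2.89) were also among the 15 largest, as was RNVU1-6 (-3.02), a variant of the U1 small nuclear RNA whose reads may be shared with near-identical copies.

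The 3 hypoxia libraries differed from one another in how far they had moved. The first principal component of the 6 libraries held 80.8% of the variance and separated hypoxia from normoxia, and the second set hypoxia replicate 3 (40.3) against replicates 1 (-33.2) and 2 (-12.3). Hypoxia replicate 1 was the lowest of the 3 hypoxia libraries in 63.1% of the up-regulated genes and the highest in 57.4% of the down-regulated genes, compared with 35.9% and 38% of all genes tested. The median difference of the up-regulated genes from the normoxia mean, on the log2(CPM + 0.5) scale, was 1.31 in replicate 1, 1.52 in replicate 2 and 1.55 in replicate 3. The integrated stress response varied most by library, at 1.07, 1.40 and 2.22, and interferon-stimulated genes stood at -0.27, -0.62 and -1.29, whereas mitosis genes stood at -1.86, -2.19 and -1.83. Replicate 3 was also the shallowest library, and the part of depth in these differences was not tested. When any 1 of the 6 libraries was left out, between 2018 and 2267 genes were up-regulated and between 1555 and 1901 were down-regulated. The normoxia libraries differed too. Normoxia replicate 2 was the highest of the 3 normoxia libraries in 49.8% of the up-regulated genes, compared with 39.8% of all genes tested. It was the lowest in 50.9% of the down-regulated genes, compared with 43.7%.

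The same comparison in the other cells called 1681 genes up-regulated (11.3%) and 1268 down-regulated (8.49%) in sgCtl, and 2193 (14.7%) and 1281 (8.58%) in sgXIST9, from libraries that are separate from those of sgXIST7. Of the genes up-regulated in sgXIST7, 1191 were also up-regulated in sgCtl, which is 52.7% of the sgXIST7 list and 70.9% of the sgCtl list, and 1568 in sgXIST9 (69.3% and 71.5%). Of the down-regulated genes, 881 were shared with sgCtl (48.5% and 69.5%) and 1106 with sgXIST9 (60.9% and 86.3%). In all 3 cells, 1044 genes rose and 691 fell. Opposite calls were rare, with 6 up-regulated genes of sgXIST7 called down in sgCtl and 1 down-regulated gene called up. The list medians in sgXIST7, sgCtl and sgXIST9 were 1.99, 2.09 and 1.69 for glycolysis, 2.60, 2.24 and 1.85 for HIF target transcription factors, -1.91, -1.25 and -1.78 for DNA replication, and -1.98, -1.39 and -2.21 for mitosis. Replication genes fell in 32, 24 and 34 of 37 cases in the same order of cells.

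**Figure D4:**
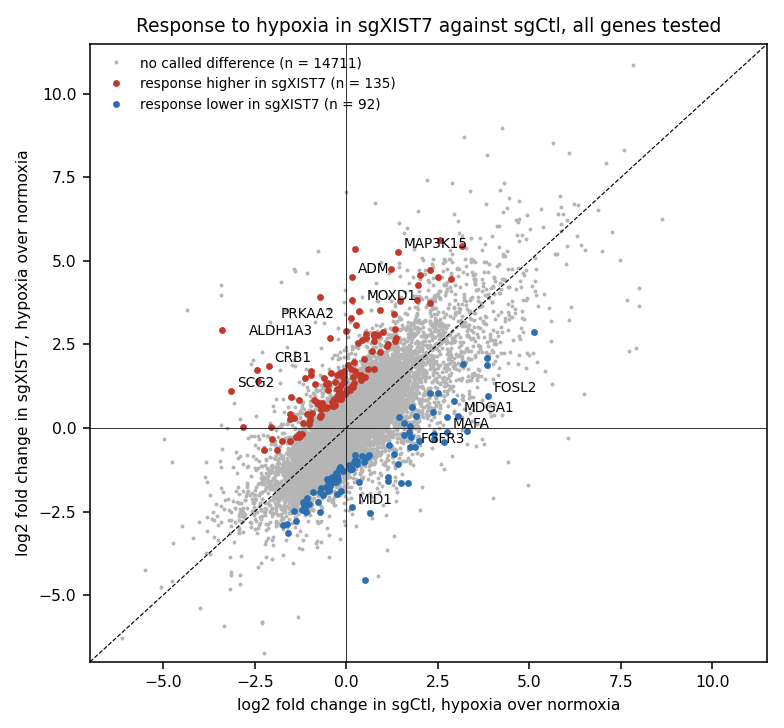
Log2 fold change between hypoxia and normoxia in sgXIST7 (vertical axis) against that in sgCtl (horizontal axis) for the 14938 genes tested, one point per gene, with the genes whose 2 responses differed in the test of the difference coloured (135 more positive and 92 more negative in sgXIST7). The dashed line marks equal responses, and the coloured points lie away from it on either side.

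A gene called in one clone and not in another was not taken to differ unless the difference of the 2 responses passed the same thresholds. The response of sgXIST7 was more positive than that of sgCtl in 135 genes (0.904%) and more negative in 92 (0.616%). Against sgXIST9 the counts were 12 (0.0803%) and 13 (0.087%). Both differences use the same sgXIST7 libraries. The counts against sgCtl depended on single libraries: they were 673 and 525 without sgCtl hypoxia replicate 3, 203 and 145 without sgXIST7 hypoxia replicate 1, 85 and 48 without sgXIST7 hypoxia replicate 3, and between 55 and 70 for the first and 25 and 32 for the second without any other library except sgXIST7 normoxia replicate 2, whose omission left 103 and 61. Against sgXIST9 they were 66 and 62 without sgXIST9 hypoxia replicate 3 and 48 and 29 without sgXIST7 hypoxia replicate 1, and, except for sgXIST7 normoxia replicate 2 and hypoxia replicate 3, 5 to 7 and 1 or 2 without any other single library. Of the 135 genes, 90 were called up-regulated in sgXIST7 and 45 were not called. Of the 92, 57 were called down-regulated, 29 were not called and 6 were up-regulated less than in sgCtl. Of 37 DNA replication genes and 36 mitosis genes tested, 4 and 2 were among the 92, which are 0.616% of all genes tested.

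ADM had the largest such difference among genes with enough counts. It was at 8.6, 9.89 and 5.93 CPM in sgXIST7 normoxia and at 141, 186 and 237 CPM in sgXIST7 hypoxia. In sgCtl it was already at 273, 263 and 325 CPM in normoxia and at 266, 325 and 380 CPM in hypoxia. The responses, 4.53 in sgXIST7 and 0.17 in sgCtl, differed by 4.36 ± 0.36 (SE) on the log2 scale (adjusted p = 5.0e-06), and every hypoxia value of sgXIST7 remained below the lowest of sgCtl. In sgXIST9 ADM went from 7 ± 0.884 to 107 ± 42.3 CPM (mean ± SD, n = 3), and the difference of 0.60 to sgXIST7 was not called (adjusted p = 0.43).

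Other genes that were low in sgXIST7 normoxia and gained more than in sgCtl were MAP3K15, a stress kinase, PRKAA2, the alpha 2 catalytic subunit of AMPK, and MOXD1, a monooxygenase-like protein. MAP3K15 went from 0.259, 0.722 and 0.61 CPM to 11.3, 22.8 and 26.6 CPM in sgXIST7, and from a mean of 6.94 to 18.6 CPM in sgCtl (difference 3.85, adjusted p = 7.1e-04). PRKAA2 went from 1.56, 3.61 and 5.53 CPM to 21.8, 36.3 and 47.7 CPM in sgXIST7, and from 80.5 to 87.9 CPM in sgCtl (3.17, adjusted p = 8.8e-04). In both genes the sgXIST7 level after hypoxia had come nearer to that of sgCtl. MOXD1 went from 1.35 to 15.3 CPM in sgXIST7 and from 4.4 to 5.7 CPM in sgCtl (3.14, adjusted p = 7.1e-04). SCG2, secretogranin II of secretory granules, went the opposite way in the 2 cells, from 21.8, 22.4 and 12.8 CPM to 49.9, 40 and 32.3 CPM in sgXIST7 and from 9.8, 14.2 and 11 CPM to 1, 1.39 and 1.59 CPM in sgCtl (4.25, adjusted p = 4.9e-06). Its rise in sgXIST7 alone (1.10) was not called without normoxia replicate 3 (0.88) or hypoxia replicate 1 (0.94). CRB1, a polarity protein, went from 20, 22.3 and 19.5 CPM to 72, 69.3 and 84.6 CPM in sgXIST7, while it fell from 1.38 to 0.326 CPM in sgCtl (3.99, adjusted p = 3.3e-05). In sgXIST9 the mean level went from 0.432 to 9.91 CPM for MAP3K15, from 0.576 to 3.29 CPM for MOXD1 and from 0.0538 CPM, below the floor of 3 counts, to 5.61 CPM for PRKAA2. SCG2 was far higher there, at 401 and 651 CPM, and CRB1 was at 0.908 and 1.38 CPM. None of these 5 responses was called different between sgXIST7 and sgXIST9, with differences of 0.76 for MAP3K15 (adjusted p = 0.63), -3.29 for PRKAA2 (0.12), 0.98 for MOXD1 (0.34), 0.40 for SCG2 (0.49) and 1.28 for CRB1 (0.069).

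ALDH1A3, above, also differed from sgCtl in its response. It was at 7.85, 6.5 and 6.37 CPM in sgCtl normoxia and at 5.94, 3.47 and 5.94 CPM in sgCtl hypoxia (-0.44, adjusted p = 0.23), and the difference was 3.12 ± 0.51 (adjusted p = 0.0024). This difference was not called in the fit of only the groups compared (3.12, adjusted p = 0.011). It was called in all 12 fits without 1 library (adjusted p up to 0.0098). The ALDH1A3 level in sgXIST7 hypoxia, at most 1.91 CPM, was below every sgCtl library. In sgXIST9 it went from 0.184 to 1.42 CPM (2.87), and the difference of -0.19 to sgXIST7 was not called (adjusted p = 0.96). For CD24 the difference to sgCtl was 1.78 ± 1.04 and was not called (adjusted p = 0.28), so that a larger or smaller response in sgXIST7 was not detectable at these counts.

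The responses that were smaller or negative in sgXIST7 included transcription factors and receptors. FOSL2, an AP-1 subunit, was already at 133, 119 and 110 CPM in sgXIST7 normoxia and reached 199, 242 and 268 CPM in hypoxia, against 9.68 to 141 CPM in the means of sgCtl (difference -2.90 ± 0.29, adjusted p = 4.2e-05). MDGA1, a synaptic adhesion modulator, was at 16.9, 22.3 and 19.2 CPM and then 21.2, 22.3 and 32 CPM in sgXIST7, which overlap, and rose from 0.573 to 4.7 CPM in sgCtl (-2.68, adjusted p = 0.0039). MAFA, a transcription factor, was at 7.49 to 10.6 CPM in normoxia and 8.03 to 8.79 CPM in hypoxia in sgXIST7 and rose from 1.53 to 10.4 CPM in sgCtl (-2.87, adjusted p = 5.3e-04). In these genes sgXIST7 started above sgCtl. FGFR3, a fibroblast growth factor receptor, went from 28 to 18.9 CPM in sgXIST7 and from 3.26 to 11.8 CPM in sgCtl (-2.45, adjusted p = 0.0017). MID1, an X-linked ubiquitin ligase, went from 42.5, 22 and 31.3 CPM to 8.6, 4.71 and 4.92 CPM in sgXIST7 and from 73.7 to 81.8 CPM in sgCtl (-2.53, adjusted p = 0.0064). In sgXIST9 the log2 fold change was 2.24 for FOSL2, 2.87 for MDGA1, 0.18 for MAFA, 0.04 for FGFR3 and -0.70 for MID1, and none of the 5 differences to sgXIST7 was called (adjusted p 0.033, 0.015, 0.75, 0.40 and 0.10). The differences to sgCtl for MDGA1 and MID1 were lost in 7 and 9 of 12 fits without 1 library (adjusted p up to 0.017 and 0.026), with the same sign.

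**Figure D5:**
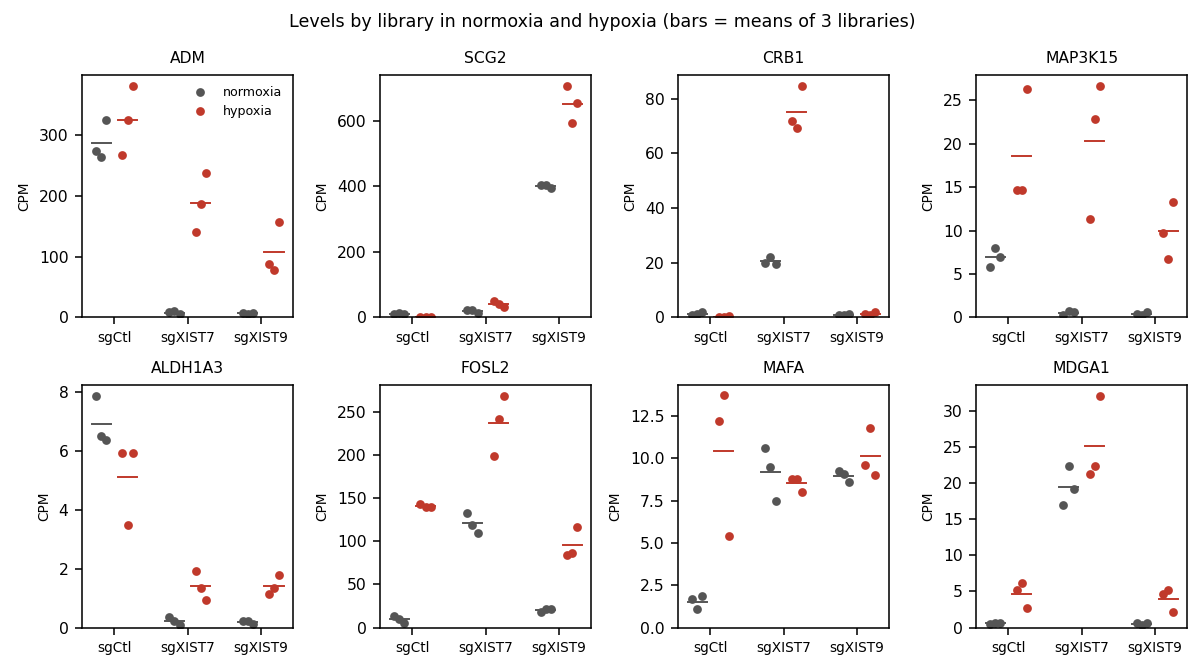
Level in CPM (linear axes that start at 0) of 8 genes in every library of sgCtl, sgXIST7 and sgXIST9, one point per library and a bar at the mean of 3 libraries, normoxia in grey and hypoxia in red. ADM and ALDH1A3 start far lower in sgXIST7 than in sgCtl, and FOSL2, MAFA and MDGA1 start higher.

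Several genes of the lists above had larger responses in sgXIST7 than in sgCtl by the same test. BTG1 rose from 1.47, 0.944 and 0.697 CPM to 18.4, 24.9 and 26.8 CPM in sgXIST7 and from a mean of 8.35 to 60.5 CPM in sgCtl (difference 1.62, adjusted p = 0.0085), so that it stayed lower in sgXIST7. CASP8, the initiator caspase of death receptors, rose from 58.4, 51.4 and 53.3 CPM to 113, 148 and 164 CPM in sgXIST7 and was at 80.9 and 65.8 CPM in sgCtl (1.68, adjusted p = 0.0048). TM7SF2, a sterol reductase, differed by 1.24 (adjusted p = 0.0063). Among the genes that fell, the difference was -1.56 for MYBL2 (adjusted p = 3.1e-04), -1.26 for MCM3 (adjusted p = 0.0029), -1.16 for SLC25A12 (adjusted p = 0.0048) and -1.07 for CRELD2 (adjusted p = 0.0079). With 1 of 12 libraries left out in turn, that of BTG1 was lost 8 times, CASP8 10 times, and TM7SF2, SLC25A12 and CRELD2 9 times each, with the same sign, and that of MCM3 without sgCtl normoxia replicate 2 (-1.22) or sgXIST7 hypoxia replicate 2 (-1.16), while that of MYBL2 was called each time. Against sgXIST9, the gene named above that differed was EPAS1, which went from 14.1, 13.6 and 14.2 CPM to 32.5, 28.2 and 39 CPM in sgXIST9, a smaller rise from a higher start than in sgXIST7 (1.69, adjusted p = 0.006), and lost in 8 of 12 such fits.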

How the data were processed

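The authors depleted ribosomal RNA, made stranded total RNA libraries, trimmed paired-end reads with Trimmomatic, checked them with FastQC, used HISAT2 for alignment to hg38 and featureCounts for the counts per gene (versions, annotation and strand setting not given in the sources used here), and compared groups with DESeq2. The deposited values are the authors' whole-number counts, not normalized, for 28279 lines, of which 2 broken lines were left out. From these counts, 14938 genes that passed filterByExpr (minimum count 10, minimum total 15) were fitted with edgeR 4.0.16 (limma 3.58.1, R 4.3.3; TMM scaling, glmQLFit with robust estimation, glmQLFTest, prior count 0.125), in 1 fit of 18 libraries in 6 groups without other terms. P-values were adjusted by the Benjamini-Hochberg method over all genes tested, and genes were called at an adjusted p under 0.01 with a log2 fold change beyond 1 either way. Fold changes are log2 values, and CPM, the usual per-library scale, was computed from TMM-scaled library sizes. Differences between clones were tested as interaction contrasts. The scripts were tested on simulated data. Counting intervals are exact 95% binomial intervals on the ratio of pooled counts, and intervals and the floor of 3 counts per library cover counting error only.

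Named genes were the 15 up-regulated and 15 down-regulated genes with the largest fold changes at a mean of at least 100 counts and with groups that do not overlap, up to 4 called members of each list and others whose role is explained, the genes the study names for this experiment, and the 6 genes each way with the largest response difference to sgCtl. A few genes these rules would name are not reported here. The gene lists and the genes were chosen with earlier results of these data known. Of the genes tested, too few had a promoter in the RefSeq table for the planned count of motifs over all called genes, which is therefore void. Alternatives tried were other scalings (median of ratios, upper quartile), DESeq2 1.42.0, other filters on low counts, an adjusted p under 0.05, a replicate block, a fit of only the groups compared, and leaving out libraries.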

Additional observations from a re-analysis of the deposited data

Results flagged for a closer look

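The results listed here were singled out because the response to hypoxia in sgXIST7 differed from that in another clone by the test of the difference itself (edgeR interaction contrast, 3 libraries per group, Benjamini-Hochberg adjusted over all genes tested). Groups of 3 are too small for a test of single outlying libraries, and none was made. Against sgCtl, the response of sgXIST7 was more positive by 4.36 on the log2 scale for ADM (adjusted p = 5.0e-06), 4.25 for SCG2 (4.9e-06), 3.99 for CRB1 (3.3e-05), 3.85 for MAP3K15 (7.1e-04), 3.17 for PRKAA2 (8.8e-04), 3.14 for MOXD1 (7.1e-04) and 3.12 for ALDH1A3 (0.0024). It was more positive by 1.68 for CASP8 (adjusted p = 0.0048), 1.62 for BTG1 (0.0085) and 1.24 for TM7SF2 (0.0063).

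The response of sgXIST7 was more negative than that of sgCtl, with a difference of -2.90 for FOSL2 (adjusted p = 4.2e-05), -2.87 for MAFA (5.3e-04), -2.68 for MDGA1 (0.0039), -2.53 for MID1 (0.0064) and -2.45 for FGFR3 (0.0017). Among genes that fell in sgXIST7, the difference was -1.56 for MYBL2 (adjusted p = 3.1e-04), -1.26 for MCM3 (0.0029), -1.16 for SLC25A12 (0.0048) and -1.07 for CRELD2 (0.0079). Against sgXIST9, EPAS1 differed by 1.69 (adjusted p = 0.006). These values share the sgXIST7 libraries, and how many genes passed this test depended on single libraries, chiefly hypoxia replicate 3 of sgCtl. Of the 20 differences, 9 were lost when at least 1 library was left out, those of MDGA1, MID1, BTG1, CASP8, TM7SF2, MCM3, SLC25A12, CRELD2 and EPAS1. That of ALDH1A3 was lost in the fit of only the groups compared (adjusted p = 0.011).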

How the results depend on the processing

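The 2262 up-regulated and 1815 down-regulated genes of sgXIST7 were 1951 to 2510 and 1640 to 1986 under the other scalings, filters, threshold, tool, block and choice of groups, and 2018 to 2267 and 1555 to 1901 with 1 library left out. The counts of response differences depended on the setting. Against sgCtl, 135 more positive and 92 more negative responses became 367 and 339 at an adjusted p under 0.05, 288 and 261 with DESeq2, 53 and 26 with only the groups compared, 709 and 579 without hypoxia replicate 3 of every clone, and 55 to 673 and 25 to 525 with 1 library left out (673 and 525 without sgCtl hypoxia replicate 3). Against sgXIST9, 12 and 13 became 54 and 76 at an adjusted p under 0.05, 78 and 77 with DESeq2, 22 and 17 without a filter beyond 1 count, 10 and 5 with only the groups compared, 124 and 165 without hypoxia replicate 3 of every clone, and 5 to 66 and 1 to 62 with 1 library left out (66 and 62 without sgXIST9 hypoxia replicate 3, 48 and 29 without sgXIST7 hypoxia replicate 1). The cause was not tested. With the replicate number as a replicate block, 2207 and 1807 genes were called in sgXIST7, 80 and 39 differed from sgCtl, and 8 and 2 from sgXIST9. Of the genes called different from sgCtl, 76 of 135 and 33 of 92 were shared with the block, and 52 and 26 with only the groups compared. Deviations of same-numbered libraries correlated at 0.113, 0.241 and 0.0308 in sgXIST7, 0.102, 0.0928 and 0.109 in sgCtl, and 0.0879, 0.0454 and 0.00254 in sgXIST9. All 9 were positive and 4 were above 0.1. In addition, 7 normoxia libraries and 8 hypoxia libraries, all those of sgCtl among them, correlated best with their own number. This was a hint of pairing, but not every pair reached the limit of 0.1 set for it. Of the sgXIST7 fold changes of 148 named genes, 138 kept direction and call under every alternative in which the gene was tested, and 8 lost the call under at least 1. At least 1 alternative left 7 of the 148 untested. Of 20 named response differences, 10 passed under every alternative and 10 were lost under at least 1 with the same sign, 5 of them under the block and 7 with only the groups compared. MAFA, not called at -0.11, ranged from -0.24 to 0.01 with 1 sgXIST7 library left out (0.01 without normoxia replicate 1). Of the counts of list members, 1009 stayed within 1.5 times and 41 did not, most of them counts of 1 or 2 genes. The cholesterol genes that fell were 5 in place of 3 without hypoxia replicate 1, and the mesenchymal and stem cell genes that fell were 0 in place of 1 without hypoxia replicate 2. The share of up-regulated genes among those called was 53.5% to 57.2%. Depth limits statements on genes near 3 counts, such as CD24 in normoxia.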
